A study of Mus musculus with 43 samples.

Results

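The unfolded protein response and the integrated stress response were followed through 36 mouse genes, taken from a list of gene symbols and found in all 6 count tables, which hold 26264 genes each. The list has 14 chaperones and folding enzymes of the endoplasmic reticulum (ER), 4 genes of ER-associated degradation (ERAD), 4 genes for the stress sensors and their transcription factor XBP1, and 14 genes of the arm that runs through the transcription factor ATF4. All 36 passed the filter on low counts in every table, so every member was tested in each of the 12 comparisons.

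RNA was sequenced from 43 libraries in 15 groups. Cultures of the line labelled BAT, differentiated to mature brown adipocytes, carried an empty vector (wild type), overexpressed Runx1 or overexpressed Runx2. A separate knockout table held a wild-type control, a Runx1 knockout, a Runx2 knockout and a double knockout, and another culture table held full-length Runx2 and a form labelled delete Runx2 IDR. Inguinal white fat (iWAT) came from Runx1 flox mice and Adipoq-cre:Runx1 KO mice, and from Runx2 flox mice and Adipoq-cre:Runx2 KO mice. A last table, labelled HFD, held iWAT of wild-type and Runx1 knockout mice. The labels give no age or sex for the animals and no length of the diet. They name Adipoq-cre for the floxed tables only, and that driver acts in adipocytes, so other cells of the fat pad keep both factors. Each group had 3 libraries except the IDR table, with 2 per group. RUNX1 and RUNX2 bind DNA as transcription factors, and are best known for roles in blood (RUNX1) and bone (RUNX2).

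When unfolded proteins accumulate in the ER, the sensors IRE1 (gene Ern1), PERK (Eif2ak3) and ATF6 are activated. IRE1 splices Xbp1 mRNA, and XBP1 and cleaved ATF6 raise transcription of chaperones and ERAD genes. PERK phosphorylates the translation factor eIF2, as other kinases do on amino acid shortage or other stress, and this favours translation of ATF4, whose targets serve amino acid supply, redox balance and, through CHOP (Ddit3), cell death. Adipocytes secrete adipokines and matrix proteins through the ER, and brown adipocytes are known to engage ER quality control during activation. Splicing of Xbp1, phosphorylation and protein levels were not measured here.

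Some members' promoters carry elements known from the unfolded protein or ATF4 response, and 7 promoters with such letters, of members the results turn on, are printed to show them. RefSeq windows of 300 bases on GRCm38.p6, from 250 before to 50 after the annotated start, were matched by symbol for 33 of the 36 members (Atf6, Hyou1 and Manf had no entry). Each sequence is the 250 bases before the start, 5′ to 3′ in the direction of the gene, and capitals mark motif letters found on either strand. The ER stress element ERSE was searched as CCAAT, 9 bases of any kind and CCACG, and ERSE-II as ATTGG, 1 base and CCACG. The C/EBP-ATF element bound by ATF4 was searched as TTGCATCA, and the cyclic AMP element as TGACGTCA. Hspa5 and Calr show ERSE (chr2:34771840-34772089, plus strand, and chr8:84846932-84847181, minus strand), and Herpud1 holds ERSE-II together with the C/EBP-ATF element (chr8:94386179-94386428, plus strand). Atf3 (chr1:191183334-191183583, minus strand), Chac1 (chr2:119350992-119351241, plus strand) and Slc7a11 (chr3:50443614-50443863, minus strand) show the C/EBP-ATF element, and Ppp1r15a (chr7:45526269-45526518, minus strand) shows the cyclic AMP element.
Hspa5: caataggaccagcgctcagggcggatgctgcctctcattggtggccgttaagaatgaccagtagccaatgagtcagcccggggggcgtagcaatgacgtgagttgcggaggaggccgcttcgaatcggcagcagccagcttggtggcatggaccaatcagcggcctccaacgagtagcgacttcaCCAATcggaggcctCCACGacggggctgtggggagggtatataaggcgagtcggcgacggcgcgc
Calr: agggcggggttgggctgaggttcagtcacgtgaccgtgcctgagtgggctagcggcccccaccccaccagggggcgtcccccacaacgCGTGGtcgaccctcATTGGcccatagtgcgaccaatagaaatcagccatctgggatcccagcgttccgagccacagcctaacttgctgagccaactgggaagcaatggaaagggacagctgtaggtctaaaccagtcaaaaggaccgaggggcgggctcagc
Herpud1: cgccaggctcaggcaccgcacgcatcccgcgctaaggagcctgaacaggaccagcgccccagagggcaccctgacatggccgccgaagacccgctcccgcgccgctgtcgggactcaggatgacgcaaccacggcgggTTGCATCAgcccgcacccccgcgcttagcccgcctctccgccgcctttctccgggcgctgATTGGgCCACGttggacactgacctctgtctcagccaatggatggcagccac
Atf3: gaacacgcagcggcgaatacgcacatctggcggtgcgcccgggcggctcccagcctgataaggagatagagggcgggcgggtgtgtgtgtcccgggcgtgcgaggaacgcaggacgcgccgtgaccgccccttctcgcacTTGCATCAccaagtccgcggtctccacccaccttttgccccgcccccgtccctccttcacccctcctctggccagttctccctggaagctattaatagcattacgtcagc
Chac1: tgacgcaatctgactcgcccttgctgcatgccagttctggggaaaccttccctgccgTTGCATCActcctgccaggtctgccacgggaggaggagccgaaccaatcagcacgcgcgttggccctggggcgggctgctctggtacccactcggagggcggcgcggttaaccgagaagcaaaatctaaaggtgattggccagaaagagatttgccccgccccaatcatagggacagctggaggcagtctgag
Slc7a11: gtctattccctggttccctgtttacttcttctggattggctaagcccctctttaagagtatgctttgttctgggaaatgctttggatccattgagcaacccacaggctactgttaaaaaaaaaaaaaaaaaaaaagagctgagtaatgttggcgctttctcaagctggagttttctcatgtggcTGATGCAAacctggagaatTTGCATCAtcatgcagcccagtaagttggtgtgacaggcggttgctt
Ppp1r15a: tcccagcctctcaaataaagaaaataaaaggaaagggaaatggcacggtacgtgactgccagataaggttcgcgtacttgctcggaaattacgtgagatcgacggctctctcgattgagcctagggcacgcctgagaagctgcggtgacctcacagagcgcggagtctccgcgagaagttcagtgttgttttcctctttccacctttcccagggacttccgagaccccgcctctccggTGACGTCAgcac

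ERSE was present in 7 of the 12 chaperone promoters matched (Calr, Canx, Creld2, Dnajc3, Hsp90b1, Hspa5 and Pdia6), in 1 of 4 ERAD promoters (Syvn1) and in 0 of 14 promoters of the ATF4 arm. Over all 32851 windows, which cover 27025 gene symbols, its share was 0.119%. Members were counted by symbol, with a match in any of their windows, while the shares of all windows count each window singly. ERSE-II was found in Dnajb11 and Herpud1, against 0.0365% of all windows. The element TTGCATCA lay in 4 of 14 promoters of the ATF4 arm (Atf3, Chac1, Nupr1 and Slc7a11) and in Herpud1, against 0.895% of windows. A looser form, TGATGNAAN, which overlaps it, added Asns and Trib3 (6 of 14, against 3.95%). TGACGTCA was found in Ppp1r15a among the members and in 1.79% of all windows. The XBP1 element TGACGTGG was found in 0 of 33 members and 0.676% of windows, and the plain CCAAT box in 12 of 12 chaperones against 37.4%. Matches describe letters in these windows and not binding.

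Values are CPM (counts scaled to a common library size, with TMM factors), log2 fold changes with standard errors (SE), and adjusted p from edgeR's quasi-likelihood (QL) test over all tested genes, with a call at 0.05. Library totals ran from 28092201 to 52171378 counts. Whether the libraries of a group are separate cultures or separate mice is not in the labels, so p-values here reflect only library-to-library spread, which may be technical. Runx1 was at 73.9 ± 10.5 CPM with its overexpression against 5.57 ± 1.23 (SD, n = 3), and Runx2 at 309 ± 25.8 against 8.77 ± 0.892 with its own. Each factor was also higher with the other overexpressed, Runx1 at 30.3 ± 2.03 CPM with Runx2 (5.42-fold) and Runx2 at 16.8 ± 1.37 CPM with Runx1 (1.91-fold, adjusted p = 3.13e-05). In cultures and fat labelled as knockouts, neither Runx1 nor Runx2 mRNA was called lower, and a count per gene does not show whether a part of a gene is missing. The targeted gene was at log2 0.048 in Runx1 and -0.021 in Runx2 knockout cultures. In Runx1 knockout fat Runx1 was at log2 -0.62 (SE 0.19, adjusted p = 0.0779), with all knockout below all flox libraries. In Runx2 knockout fat Runx2 was at log2 -1.19 (SE 0.54, adjusted p = 0.254), with overlap. Runx1 in HFD knockout fat was at log2 -0.30 (SE 0.32). Some libraries stood apart from their group. In the overexpression table, the sum of 9 cardiac muscle genes was 1521 CPM in Runx1 replicate 3, 101 and 398 CPM in empty-vector replicates 1 and 2, and between 1.55 and 4.84 CPM elsewhere. In the double knockout, replicate 1 had 16780 CPM of 9 adipocyte genes against 8551 and 8998 CPM in the other replicates. In Runx2 flox fat, replicate 3 had 37850 CPM of adipocyte genes against 14190 and 17300 CPM, and 7212 CPM of 9 skeletal muscle genes against 49.5 and 77.9 CPM. In the Runx1 fat table, skeletal muscle genes summed to over 1000 CPM in 3 of 6 libraries. Results that rest on these libraries are given with and without them.

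With Runx1 overexpressed, the sensors, the ERAD genes Herpud1 and Sel1l and most chaperones fell, with Trib3, Ppp1r15a and Chac1 of the ATF4 arm. Of the 36 members, 3 were called higher and 20 lower, where 28.2% and 25.8% of all 14661 tested genes were called higher and lower. Runx2 overexpression gave 5 higher and 19 lower, against 31.3% and 29.6% of all genes. The shares of all genes in each comparison also apply to its counts by arm and by related list below. The median log2 fold change of the members was -0.53 with Runx1 and -0.25 with Runx2, where that of all genes was 0.058 and 0.026. The 2 comparisons share the empty-vector libraries, so their values are given side by side.

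**Figure D1:**
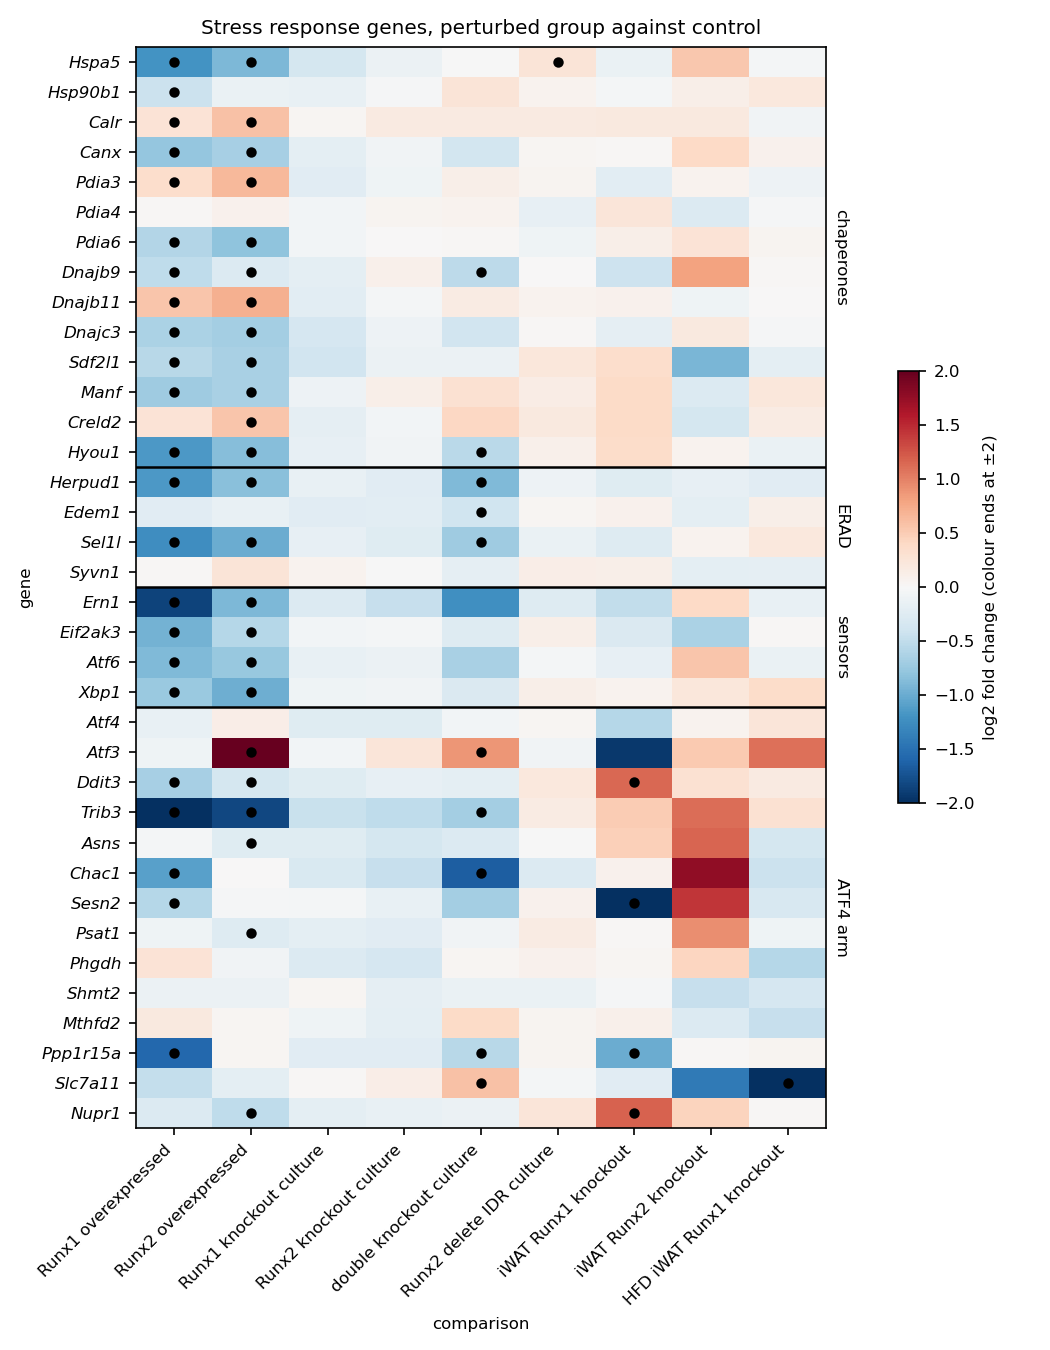
Log2 fold changes of the 36 members (rows, by arm) in 9 comparisons of a perturbed group with its control (columns). Red is higher and blue lower in the perturbed group, the colour ends at 2 either way, and black dots mark calls at adjusted p under 0.05. Dots are dense in the 2 overexpression columns (23 and 24), fewer in the double knockout (10) and at most 4 elsewhere.

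Among chaperones, Hspa5 (BiP, the main ER chaperone of the HSP70 family) measured 1726, 1654 and 1711 CPM with the empty vector, 781, 725 and 728 with Runx1 and 924, 901 and 920.4 with Runx2. All 6 overexpressing libraries lay below all 3 controls, a 2.28-fold fall with Runx1 (log2 -1.19, SE 0.077, adjusted p = 3.8e-07) and a 1.85-fold fall with Runx2 (log2 -0.89, SE 0.077, adjusted p = 1.61e-06). Hyou1, a nucleotide exchange partner of BiP, went from 222, 232 and 197 CPM to 98.1, 96.6 and 98.3 with Runx1 and 125, 124 and 112 with Runx2 (log2 -1.15, SE 0.087, and -0.85, SE 0.087). Its levels did not overlap between the 3 groups. Canx, the membrane-bound lectin chaperone calnexin, was at 739, 627 and 696 CPM in controls, 390.5, 378 and 443 with Runx1 and 400.0, 440.0 and 454 with Runx2. It fell in both (log2 -0.77, SE 0.098, and log2 -0.67, SE 0.098). Dnajc3, an ER cochaperone that also inhibits PERK, fell from 207, 202 and 200.4 CPM to 128, 128 and 137 with Runx1 and to 115, 124 and 140.1 with Runx2. Pdia6, a protein disulfide isomerase, was at 519, 538 and 516 CPM in controls, 377, 364 and 309 with Runx1 and 335, 285 and 285 with Runx2 (log2 -0.58 and -0.80).

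Other chaperones rose in the same libraries. Dnajb11, a cochaperone of BiP, measured 121, 128 and 133 CPM with the empty vector, 200.4, 194 and 165 with Runx1 and 215, 206 and 202 with Runx2 (log2 0.55, SE 0.091, adjusted p = 0.000399, and log2 0.70, SE 0.091, adjusted p = 4.12e-05). Pdia3, the isomerase that works with calreticulin and calnexin on glycoproteins, rose from 424, 373 and 414 CPM to 536, 534 and 467 with Runx1 and 621, 639.7 and 628 with Runx2 (log2 0.34, SE 0.088, and log2 0.64, SE 0.088). Calr, the soluble partner of calnexin, rose from 759, 724 and 794 CPM to 954, 965 and 826 with Runx1 (log2 0.27, SE 0.093, adjusted p = 0.0298) and to 1226, 1096 and 1085 with Runx2 (log2 0.58, SE 0.094, adjusted p = 0.00023). The call with Runx1 was lost in 6 of 15 alternatives. Calreticulin and calnexin thus moved in opposite directions, and no overexpressing library of either overlapped the controls. Creld2, an ER-resident folding factor, passed only with Runx2 (log2 0.55, SE 0.15, adjusted p = 0.00688; log2 0.27, SE 0.15, adjusted p = 0.139 with Runx1), and the difference between the overexpressions did not pass (log2 0.28, SE 0.15, adjusted p = 0.155). Of the 7 chaperones with ERSE, Canx, Dnajc3, Hspa5 and Pdia6 fell in both comparisons and Calr rose in both. Hsp90b1, the ER member of the HSP90 family, fell with Runx1 (log2 -0.42, SE 0.096) and was at log2 -0.13, SE 0.096 with Runx2.

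Falls of smaller size were called for Dnajb9 (log2 -0.51 and -0.28), a cochaperone that represses IRE1, with the Runx2 call lost in 5 of 15 alternatives. The secreted ER factor Manf fell as well (log2 -0.71 and -0.65). Sdf2l1 was called lower (log2 -0.56 and -0.65), but lost the call in 9 of 15 alternatives with Runx1 and in 3 of 15 with Runx2. Without Runx1 replicate 3 it stood at log2 -0.35 with Runx1, and without the libraries with cardiac transcripts at -0.24 (adjusted p = 0.372). Pdia4 was called in neither (log2 0.018 and 0.086). Among 31 other ER folding and translocation genes tested, 2 were higher and 15 lower with Runx1, and 6 and 12 with Runx2. The oxidoreductases Ero1a and Ero1b, which reoxidise disulfide isomerases, led the falls: Ero1a was at log2 -3.50 and -4.52, and Ero1b at -1.49 and -1.45. The translocon-associated Serp1 followed (log2 -0.91 and -1.12).

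In ERAD, Herpud1, which organises the ubiquitin ligase complex, measured 134, 161 and 126 CPM in controls, 63.3, 62.01 and 64.8 with Runx1 and 82.5, 81.4 and 72.6 with Runx2 (log2 -1.15, SE 0.10, adjusted p = 3.88e-06, and log2 -0.83, SE 0.10, adjusted p = 2.6e-05). Sel1l, the adaptor of the ligase HRD1, was at 267, 254 and 266 CPM in controls, 106, 99.8 and 126 with Runx1 and 112, 141 and 141 with Runx2 (log2 -1.24, SE 0.12, adjusted p = 5.43e-06, and log2 -0.998, SE 0.12, adjusted p = 1.67e-05). Both genes had every overexpressing library below every control. Syvn1, which encodes HRD1 itself, and the mannosidase-like Edem1 were called in neither comparison. Syvn1 was at log2 0.026 and 0.25, and Edem1 at -0.22 and -0.15. Of 15 other ERAD genes, 1 was higher and 3 lower with Runx1 and 0 and 8 with Runx2. The derlin Derl1 fell in both (log2 -0.79 and -0.96), while the segregase Vcp rose with Runx1 (log2 0.69, SE 0.083).

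All 4 genes of the sensors and XBP1 fell in both comparisons. Ern1 had the largest change of the 4 with Runx1, from 48.6, 42.4 and 47.1 CPM to 11.01, 9.24 and 17.99 (log2 -1.85, SE 0.23, adjusted p = 4.03e-05), and reached 19.2, 27.9 and 26.7 CPM with Runx2 (log2 -0.90, SE 0.22, adjusted p = 0.00378). Eif2ak3 was at 49.1, 46.3 and 45.9 CPM in controls, 26.4, 20.9 and 25.8 with Runx1 and 30.3, 33.1 and 31.7 with Runx2 (log2 -0.95, SE 0.11, and log2 -0.57, SE 0.11). The groups did not overlap for either sensor. Atf6 went from 101, 107 and 94.1 CPM to 48.1, 50.4 and 64.9 with Runx1 and 53.7, 63.6 and 60.7 with Runx2 (log2 -0.89, SE 0.12, and log2 -0.76, SE 0.12). Xbp1 went from 206, 210.1 and 183 CPM to 119.9, 118 and 122 with Runx1 and 109, 91.9 and 104 with Runx2 (log2 -0.74, SE 0.091, and log2 -0.97, SE 0.091). Gene counts do not separate spliced from unspliced Xbp1. Among 8 genes of the ATF6-like OASIS family and ATF6 processing, 4 were higher and 2 lower with Runx1 and 5 and 1 with Runx2. Creb3l1, an ER-anchored factor of matrix-secreting cells, rose in both (log2 1.86 and 2.30).

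**Figure D2:**
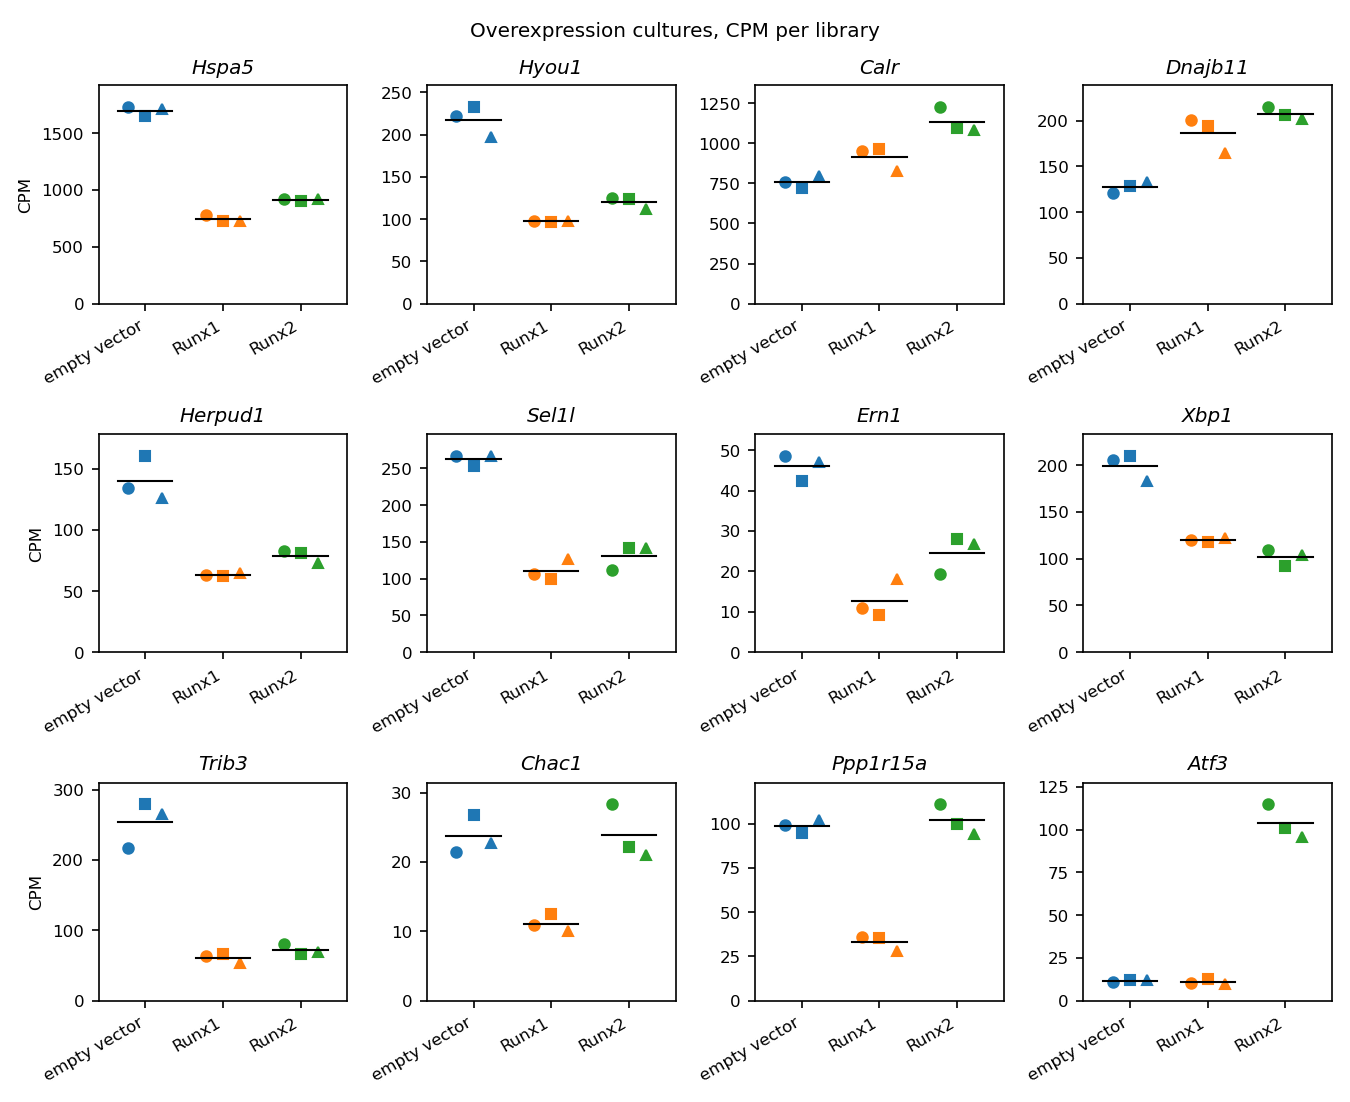
CPM in each library of the overexpression table (vertical axes start at 0) for 12 members. Points are libraries, coloured by group, and black lines are group means. Hspa5 sits between 725 and 924 CPM in the overexpressing libraries against 1654 to 1726 CPM in controls, while Atf3 is high only in the 3 Runx2 libraries (95.5 to 115 CPM).

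The ATF4 arm had 0 members higher and 5 lower with Runx1, and 1 higher and 5 lower with Runx2. Its share called lower was 35.7% in each, where 25.8% and 29.6% of all genes were called lower. The shares called higher were 0% and 7.14%, where those of all genes were 28.2% and 31.3%. Atf4 itself was at 433, 468 and 415 CPM with the empty vector, 422, 419 and 352 with Runx1 and 507, 454 and 477 with Runx2, and passed against control in neither (log2 -0.14, SE 0.096, adjusted p = 0.231, and log2 0.13, SE 0.096, adjusted p = 0.27). Trib3, a pseudokinase that feeds back on ATF4 and AKT signalling, measured 217, 279 and 265 CPM in controls, 63.4, 65.8 and 52.8 with Runx1 and 80.4, 66.01 and 68.8 with Runx2. It fell 4.18-fold and 3.54-fold (log2 -2.06, SE 0.13, adjusted p = 2.58e-07, and log2 -1.82, SE 0.13, adjusted p = 2.66e-07). Ddit3 (CHOP) was at 191, 202 and 195 CPM in controls, 132, 140.1 and 100.2 with Runx1 and 179, 142 and 142 with Runx2. It fell in both (log2 -0.66, SE 0.13, and log2 -0.35, SE 0.13), and the call with Runx2 was lost in 6 of 15 alternatives.

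The overexpressions parted at Atf3, Ppp1r15a, Chac1 and Sesn2. Atf3, a stress-induced repressor of the ATF family, was at 10.6, 12.3 and 11.9 CPM in controls, 10.5, 12.9 and 9.49 with Runx1 and 115, 101 and 95.5 with Runx2. It rose 8.93-fold with Runx2 (log2 3.16, SE 0.14, adjusted p = 7.86e-09) and was at log2 -0.084, SE 0.13 with Runx1. Ppp1r15a (GADD34), the phosphatase subunit that removes the phosphate from eIF2, was at 99.3, 94.4 and 102 CPM in controls, 35.9, 35.1 and 28.1 with Runx1 and 94.4 to 111 in the 3 Runx2 libraries. It fell 2.98-fold with Runx1 (log2 -1.58, SE 0.11, adjusted p = 5.8e-07) and was at log2 0.046, SE 0.11 with Runx2. Chac1, which degrades glutathione, was at 21.5, 26.7 and 22.8 CPM in controls, 10.8, 12.5 and 9.998 with Runx1 and 28.3, 22.2 and 20.98 with Runx2. It fell with Runx1 (log2 -1.09, SE 0.15, adjusted p = 8.4e-05) and was at log2 0.0092, SE 0.14 with Runx2. Sesn2, a stress-induced brake on mTORC1, was at 60.001, 86.4 and 71.3 CPM in controls, 48.7, 47.6 and 49.8 with Runx1 and 78.5, 71.7 and 65.1 with Runx2, and fell with Runx1 (log2 -0.58, SE 0.13). Phgdh, the entry enzyme of serine synthesis, had opposite signs without a call: 240.4, 303 and 236 CPM in controls, 334, 348 and 263 with Runx1 and 275, 230.1 and 234 with Runx2.

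The amino acid and one-carbon enzymes of the arm moved little. Asns (asparagine synthetase, log2 -0.23) and Psat1 (serine synthesis, log2 -0.26) were called lower with Runx2, each by less than 1.5-fold, and Asns lost the call in 8 of 15 alternatives. Phgdh, Shmt2, Mthfd2 and the cystine transporter Slc7a11 were not called in either comparison. Nupr1, a stress-inducible chromatin protein, was lower with Runx2 (log2 -0.50, SE 0.13). Over all genes, 28.2% were called higher and 25.8% lower with Runx1, and 31.3% and 29.6% with Runx2. Of 28 other ATF4 targets, 7 were higher and 16 lower in each comparison. The mitochondrial folate enzyme Aldh1l2 (log2 -3.15 and -2.16), the lipoprotein receptor gene Vldlr (-2.82 and -3.12) and Cdsn (-2.33 and -3.44) were among those that fell. Of 20 cytosolic aminoacyl-tRNA synthetases, 6 were higher and 6 lower with Runx1 and 5 and 6 with Runx2. Wars fell in both (log2 -0.81 and -1.14) and Tars rose in both (log2 0.52 and 0.67). Of 13 genes of eIF2, its kinases and its phosphatases, 3 were higher and 3 lower with Runx1 and 2 and 8 with Runx2. The interferon-inducible kinase Eif2ak2 rose with Runx2 (log2 1.79), as did Impact, an inhibitor of the kinase GCN2 (log2 0.84 with Runx1 and 1.44 with Runx2). Of 12 mitochondrial chaperones and proteases, 6 were lower with Runx1 and all 12 with Runx2. The matrix protease subunit Clpx (log2 -1.35 and -2.04) and the cochaperone Dnaja3 (log2 -1.38 and -1.94) were among those of lowest p.

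The direct test of Runx2 against Runx1 overexpression called 13 members higher and 0 lower, where 18.9% and 21% of all genes were called. The 13 were spread over all arms (5 chaperones, 1 ERAD gene, 2 sensors, 5 genes of the ATF4 arm), and 4 of them differed by 1.5-fold or more. These were Atf3 (log2 3.24, SE 0.14, adjusted p = 5.33e-08), Ppp1r15a (log2 1.62, SE 0.11, adjusted p = 1.55e-06), Chac1 (log2 1.10, SE 0.15, adjusted p = 0.000176) and Ern1 (log2 0.95, SE 0.22, adjusted p = 0.00588). Sesn2 differed by log2 0.56 (SE 0.13). Atf4 was called by a small margin (log2 0.27, SE 0.096, adjusted p = 0.0429), and lost the call in 7 of 15 alternative settings. Hspa5, Hyou1, Herpud1, Calr, Pdia3, Hsp90b1 and Eif2ak3 were higher with Runx2 by log2 0.29 to 0.38. Xbp1 was at log2 -0.24, SE 0.090 and did not pass (adjusted p = 0.0586). Without Runx2 replicate 2 the count was 7 members among 3912 genes called, against 5845 genes with every library. Without Runx1 replicate 2 it was 8 members among 4359 genes.

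**Figure D3:**
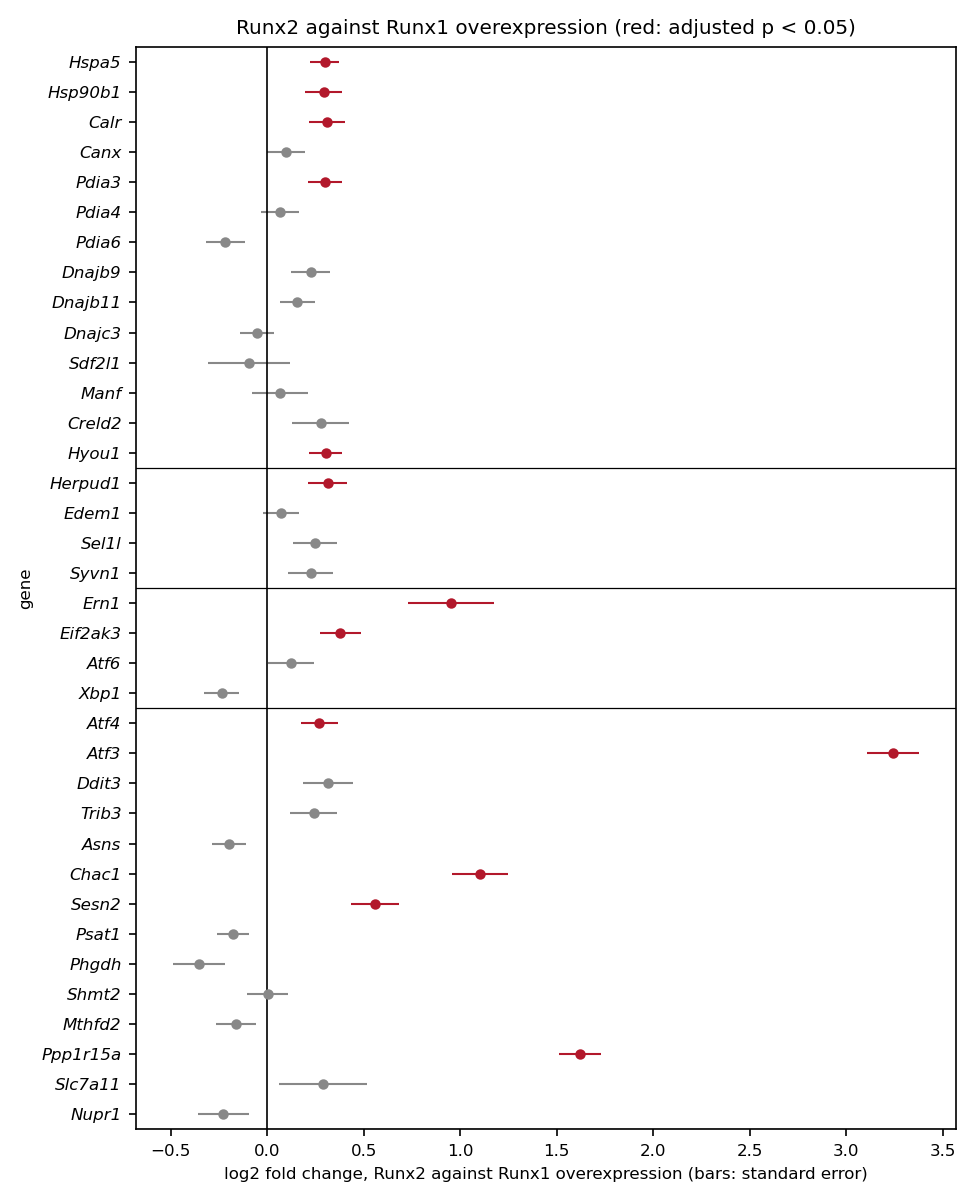
Log2 fold change of each member with Runx2 against Runx1 overexpression (horizontal axis) with its standard error as a bar, members grouped by arm from chaperones at the top to the ATF4 arm at the bottom. Red points passed at adjusted p under 0.05. Atf3 (3.24), Ppp1r15a (1.62), Chac1 (1.10) and Ern1 (0.95) stand to the right, and the other called members lie closer to 0.

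Other measures moved with these groups. The 7 brown adipocyte genes summed to 325 to 399 CPM with the empty vector, 40.4 to 81.9 with Runx1 and 33.3 to 43.6 with Runx2, with 5 of 7 called lower in each. The 9 general adipocyte genes summed to 8502 to 9150 CPM, 7411 to 9074 CPM and 4103 to 4879 CPM in the same order. Of the general adipocyte genes, 3 were higher and 4 lower with Runx1 and 0 and 8 with Runx2. Of 6 tested stromal fibroblast genes, 4 were higher in each and 1 lower with Runx2, and the list's sums went from 390 to 841 CPM in controls to 1924 to 2240 and 5058 to 5556 CPM. The part of these changes in the member values was not tested. Without the 3 libraries that carried cardiac transcripts, which leaves 1 control whose spread is taken from the other groups, 25 members were called in each comparison with control, among 7275 genes with Runx1 and 8198 with Runx2. These were 4 higher and 21 lower with Runx1 and 6 higher and 19 lower with Runx2. Runx2 against Runx1 then gave 15 higher and 4 lower among 7518 genes, against 5845 with every library, the lower members being Asns, Nupr1, Pdia6 and Phgdh.

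In the Runx1 and Runx2 knockout cultures no member was called. The background was 0.406% higher and 0.0295% lower of 13551 genes for Runx1 and 0.177% and 0.00738% for Runx2. At an unadjusted p under 0.05, 4 members and 942 genes stood in the Runx1 comparison, and 2 members and 872 genes in the Runx2 comparison. DESeq2's Wald test called 0 members among 220 genes for Runx1 and 1 among 197 for Runx2. Trib3 had the lowest p of the members in each, at 413, 417 and 365 CPM in the control, 289.8, 292 and 297 in the Runx1 knockout and 288, 286 and 271 in the Runx2 knockout. Neither group overlapped the control, and neither passed (log2 -0.44, SE 0.13, adjusted p = 0.306, and log2 -0.50, SE 0.13, adjusted p = 0.212). When only the compared groups entered the fit, Trib3 was called in both (adjusted p = 0.024 and 0.0225). Of the other ATF4 targets, Stc2, a secreted glycoprotein, was called higher in each (log2 1.77 and 1.81). Stromal fibroblast genes summed to 733 to 856 CPM in the Runx1 knockout against 371 to 586 CPM in the control, with 1 of 5 tested genes called higher. Brown adipocyte genes summed to 514 to 565 CPM in the Runx2 knockout against 391 to 451 CPM, with 1 of 7 called higher.

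In the double knockout, 3 of 4 ERAD genes fell, with Chac1, Trib3 and Ppp1r15a of the ATF4 arm, while Atf3 and Slc7a11 rose. It had 2 members higher and 8 lower, against 8.27% and 7.01% of all genes, and 18 members and 4192 of 13551 genes at an unadjusted p under 0.05. Herpud1 measured 167, 207 and 206 CPM in the control, 175, 173 and 172 in the Runx1 knockout, 167, 171 and 157 in the Runx2 knockout and 111, 103 and 99.2 in the double knockout (log2 -0.89, SE 0.11, adjusted p = 0.000315). All 3 double knockout libraries lay below the 9 others. It was also lower than in each single knockout (log2 -0.73, SE 0.11, adjusted p = 0.00369 against Runx1, and log2 -0.66, SE 0.11, adjusted p = 0.00554 against Runx2), and kept its call against the control in every alternative run. Sel1l was at 278, 263 and 252 CPM in the control and 111, 179 and 192 in the double knockout (log2 -0.72, SE 0.17, adjusted p = 0.014). Edem1 fell by 0.40 log2 units (SE 0.12, adjusted p = 0.0412), a call kept in only 4 of 17 alternatives.

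Of the ATF4 arm, Chac1 went from 33.8, 59.8 and 50.5 CPM in the control to 8.55, 17.03 and 20.1 in the double knockout (log2 -1.66, SE 0.27, adjusted p = 0.00199). It was at 42.7, 36.9 and 37.1 CPM in the Runx1 knockout and 34.8, 37.2 and 33.1 in the Runx2 knockout, and lower in the double knockout than in either (log2 -1.35, SE 0.27, adjusted p = 0.0143, and log2 -1.20, SE 0.27, adjusted p = 0.0244). Trib3 reached 299, 244 and 207 CPM in the double knockout (log2 -0.67, SE 0.13, adjusted p = 0.00508). Ppp1r15a was at 89.97, 134 and 115 CPM in the control and 81.7, 73.9 and 74.3 in the double knockout (log2 -0.56, SE 0.13, adjusted p = 0.0161). Atf3 rose from 6.32, 8.67 and 6.14 CPM to 12.1, 13.4 and 13.6 (log2 0.89, SE 0.17, adjusted p = 0.00458), with 7.33, 6.16 and 6.92 in the Runx1 and 7.02, 9.24 and 8.85 in the Runx2 knockout. It was higher than in each single knockout as well (log2 0.94, SE 0.17, adjusted p = 0.00888, and log2 0.64, SE 0.17, adjusted p = 0.0454), and the latter call was lost in 13 of 17 alternatives. Slc7a11 was at 5.82, 7.19 and 5.54 CPM in the control and 8.87, 8.41 and 10.6 in the double knockout (log2 0.58, SE 0.18, adjusted p = 0.0419), a call lost in 12 of 17 alternatives. Atf3 was thus high and Chac1 low in the double knockout, while with Runx2 overexpressed Atf3 was high and Chac1 near its control.

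Of chaperones, Dnajb9 fell from 91.1, 88.03 and 84.9 CPM to 70.7, 57.6 and 56.05 (log2 -0.52, SE 0.12, adjusted p = 0.0133), and Hyou1 from 206, 204 and 205 CPM to 98.01, 165 and 159 (log2 -0.54, SE 0.17, adjusted p = 0.0454). The call of Hyou1 was lost in 12 of 17 alternatives, and without replicate 1, its lowest library, the fall was log2 -0.33 (adjusted p = 0.00768). Hspa5 was at 1898, 1524 and 1472 CPM in the control, 1199, 1339.9 and 1318 in the Runx1 knockout, 1478, 1499.6 and 1526 in the Runx2 knockout and 2027, 1492 and 1331 in the double knockout, with overlap. Xbp1 measured 229, 229 and 231 CPM in the control, 218, 210.4 and 218 in the Runx1 knockout, 225, 230.1 and 201 in the Runx2 knockout and 181, 190.1 and 195 in the double knockout (log2 -0.28, SE 0.095, adjusted p = 0.0654). The double knockout stood below the control there without passing. Against the Runx1 knockout 1 member was higher and 2 lower (3.42% and 3.03% of all genes). Against the Runx2 knockout it was 2 and 3 (3.06% and 2.46%), with Dnajb9 lower (log2 -0.62, SE 0.12) and the mitochondrial folate enzyme Mthfd2 higher (log2 0.58, SE 0.14), the latter call being lost in 9 of 17 alternatives. Mthfd2 was at 131, 144 and 127 CPM in the Runx2 knockout and 237, 183 and 179 in the double knockout. These counts hung on single libraries, and the counts over all genes moved with them. Against the Runx1 knockout, where 873 genes were called, 10 members were called without double knockout replicate 1 (1779 genes), 7 without double knockout replicate 3 (1952 genes), and 2 and 1 without Runx1 knockout replicates 1 and 2 (191 and 176 genes). Against the Runx2 knockout, where 748 genes were called, 11 were called without double knockout replicate 1 (1768 genes), 1 without Runx2 knockout replicate 2 or replicate 3 (224 and 205 genes), and 2 without Runx2 knockout replicate 1 (264 genes). Without a control or Runx1 knockout library, which enter that fit through the shared spread, as few as 3 were called (487 to 522 genes). Of other ATF4 targets, 3 of 28 were higher and 4 lower in the double knockout. Ddit4 (an inhibitor of mTORC1) rose by log2 1.04, Ecm1 by 1.13, and the amino acid exchanger Slc1a4 fell (log2 -1.15).

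**Figure D4:**
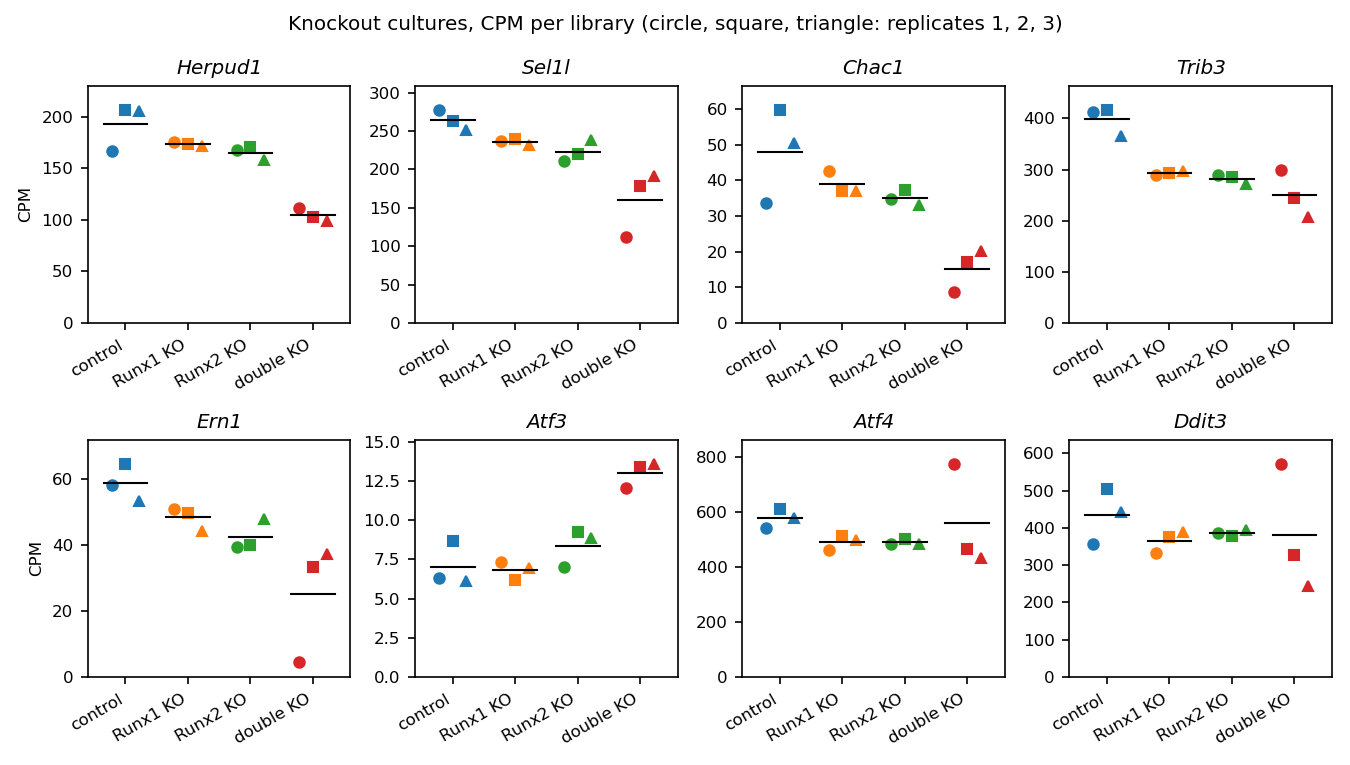
CPM in each library of the knockout cultures (vertical axes start at 0) for 8 members, with circles, squares and triangles for replicates 1, 2 and 3 and black lines for group means. Herpud1 is lowest in the 3 double knockout libraries (99.2 to 111 CPM). Replicate 1 of the double knockout lies apart for Ern1 (4.57 CPM) and Atf4 (777 CPM).

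Replicate 1 of the double knockout decided much of these counts. Ern1 was at 58.3, 64.7 and 53.4 CPM in the control and 4.57, 33.3 and 37.3 in the double knockout (log2 -1.23, SE 0.49, adjusted p = 0.112). Atf4 was at 543, 612 and 581 CPM in the control, 462, 513 and 500.3 in the Runx1 knockout, 485, 503 and 486 in the Runx2 knockout and 777, 467 and 434 in the double knockout. Ddit3 was at 356, 504 and 441 CPM in the control, 332, 375 and 388 in the Runx1 knockout, 386, 378 and 396 in the Runx2 knockout and 572, 326 and 244 in the double knockout. Replicate 1 was high in Atf4, Ddit3 and Manf, and low in Ern1, Atf6 and Sesn2. Without it, 23 members were called, 3 higher and 20 lower, among 3584 genes called in all, against 2070 with every library. Ern1 (-0.73 log2, adjusted p = 0.00015), Atf4 (-0.35, adjusted p = 0.00294) and Ddit3 (-0.60, adjusted p = 0.0027) were then called lower. So was Xbp1 (-0.24, adjusted p = 0.0293). All 10 members called with every library were called in the same direction without replicate 1. Without it, Trib3 and 2 others were called lower in the Runx1 knockout, among 386 genes called, against 59 with every library. In the Runx2 knockout Trib3 and 3 others were called lower, among 364 genes against 25. Replicate 1 is in neither of these comparisons and enters them only through the fit shared by all groups. Fitted on the control and double knockout libraries alone, Herpud1 was the 1 member called. Leaving out control replicate 1 or control replicate 2 gave 6 members each (1592 and 1050 genes). Brown adipocyte genes summed to 528 to 948 CPM in the double knockout against 391 to 451 CPM in the control, with 4 of 7 called higher. Stromal fibroblast genes summed to 623 to 1252 CPM against 371 to 586 CPM, with 2 of 5 tested genes called higher and a median log2 of 0.029. Genes of mammary and other epithelium summed to 13.6 to 25.0 CPM against 2.35 to 3.67 CPM, with 1 of 2 tested genes called higher. The part of these lists was not tested.

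The 4 calls in fat from Adipoq-cre:Runx1 KO mice were of the ATF4 arm, with Nupr1 and Ddit3 higher and Sesn2 and Ppp1r15a lower. The counts of 2 higher and 2 lower compare with 4.45% and 3.03% of 15896 genes. Nupr1 measured 24.7, 32.7 and 19.9 CPM in Runx1 flox fat and 59.2, 63.4 and 53.2 in the knockout (log2 1.19, SE 0.18, adjusted p = 0.00733). Ddit3 was at 21.8, 23.9 and 14.2 CPM in flox fat, against 53.8, 40.4 and 38.7 in the knockout (log2 1.15, SE 0.21, adjusted p = 0.0149). Sesn2 was at 39.5, 90.7 and 53.9 CPM, against 10.97, 9.87 and 15.1 in the knockout, a 5.12-fold fall (log2 -2.36, SE 0.32, adjusted p = 0.00963). Ppp1r15a was at 45.2, 82.2 and 89.2 CPM, against 30.9, 38.1 and 40.03 (log2 -0.99, SE 0.24, adjusted p = 0.0414), a call lost in 6 of 11 alternatives. The groups did not overlap for any of the 4. Bulk fat cannot tell fewer cells of a type from less RNA per cell.

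Atf4 was at 303, 458 and 256 CPM in Runx1 flox fat and 248, 208 and 231 in the knockout (log2 -0.57, SE 0.20, adjusted p = 0.116), and Atf3 at 15.9, 47.4 and 17.3 CPM, against 5.25, 6.70 and 9.33 (log2 -1.92, SE 0.49, adjusted p = 0.0672). Neither passed, although the knockout libraries lay below all flox libraries. Hspa5 (490.4, 545 and 499.8 against 543, 427 and 429.9 CPM) and Xbp1 (252, 216 and 161 against 229.7, 217 and 211 CPM) overlapped between groups. No chaperone, ERAD gene or sensor was called. Of other ATF4 targets, Atf5, a related factor, rose (log2 1.06, SE 0.17), and Slc7a1, a cationic amino acid transporter, fell (log2 -0.81). Of 12 mitochondrial chaperones and proteases 4 were higher and 0 lower, among them Hspe1 (log2 0.98), Clpp (log2 0.71) and Hspd1 (log2 0.84). Skeletal muscle genes summed to 15.4, 7060 and 74.3 CPM in flox fat and to 226, 16360 and 7621 CPM in the knockout. Brown adipocyte genes summed to 133 to 182 CPM in flox fat and 216 to 324 CPM in the knockout (2 of 7 called higher and 1 lower), and endothelial genes to 851 to 1128 CPM and 558 to 796 CPM (1 of 6 called lower). Neither list overlapped between the groups, and their part in the 4 calls was not tested. Without the 3 libraries above 1000 CPM, which leaves 2 flox libraries and 1 knockout library, Nupr1 (log2 1.41), Ddit3 (1.58) and Sesn2 (-2.09) stayed called. Ppp1r15a did not (log2 -1.12, adjusted p = 0.106), and Atf3 was called lower (log2 -1.66). The lone knockout library is taken there to vary like the flox group. None of the 4 calls held without knockout replicate 2, where 99 genes were called in all, against 1189 with every library. Without knockout replicate 1, 2 of the calls held, among 440 genes.

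In fat from Adipoq-cre:Runx2 KO mice no member was called, and neither was any of the 15574 genes tested (0% higher and 0% lower). At an unadjusted p under 0.05, 3206 genes and 9 members stood in this comparison, and DESeq2 called 1039 genes and 4 members. Trib3 had the lowest p of the members, at 4.23, 6.41 and 5.75 CPM in Runx2 flox fat and 12.5, 10.6 and 12.5 in the knockout (log2 1.12, SE 0.24, adjusted p = 0.218). Slc7a11 was at 26.7, 12.7 and 10.1 CPM in flox fat, against 5.97, 6.54 and 6.11 in the knockout (log2 -1.41, SE 0.37, adjusted p = 0.218). Sesn2 was at 18.9, 47.9 and 61.9 CPM, against 167, 82.5 and 97.7 (log2 1.43, SE 0.45, adjusted p = 0.218). The groups did not overlap in any of these 3 genes. Hspa5 was at 419.9, 431 and 611 CPM in flox fat, against 756, 660.3 and 716 in the knockout, and the groups were apart without a call. Xbp1 was at 245, 195 and 484 CPM in flox fat, against 516, 253 and 309 in the knockout. Atf4 was at 264, 304 and 331 CPM, against 339.7, 262 and 343, and Ddit3 at 17.4, 16.02 and 18.1 CPM, against 21.3, 17.8 and 24.6. These 3 overlapped between groups.

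Flox replicate 3 lay with the knockouts in several members. Asns was at 40.9, 51.02 and 186 CPM in flox fat, against 251, 171 and 201 in the knockout, and Psat1 at 59.5, 56.97 and 137 CPM, against 209, 136 and 136. Chac1 was at 1.36, 2.52 and 7.27 CPM in flox fat, against 15.5, 8.46 and 13.9 in the knockout, and Nupr1 at 29.8, 27.3 and 69.2 CPM, against 73.3, 42.1 and 57.4. In each of these the replicate was the highest of its group. The same library had 316 CPM of 9 B cell genes against 1995 and 2141 CPM in the other flox libraries and 278 to 669 CPM in the knockouts. Its adipocyte genes summed to 37850 CPM against 38760 to 47450 CPM in the knockouts, and its skeletal muscle genes to 7212 CPM against 141 to 450 CPM. Without it, 16 members were called, 11 higher and 5 lower, among 6354 genes called. Asns (log2 2.18, adjusted p = 0.000277), Chac1 (2.70), Psat1 (1.47), Sesn2, Nupr1, Trib3, Phgdh, Dnajb9, Hspa5, Atf6 and Canx were the higher ones. Slc7a11 (-1.66), Sdf2l1, Eif2ak3, Shmt2 and Mthfd2 were the lower ones. Adipocyte and B cell genes then differ between the groups as well. With every library, brown adipocyte genes summed to 59.3 to 144 CPM in flox fat and 317 to 951 CPM in the knockout, T cell genes to 559.6 to 1405 CPM and 406 to 525 CPM, and macrophage genes to 1192 to 1882 CPM and 954 to 1141 CPM, without overlap. The part of these lists was not tested.

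**Figure D5:**
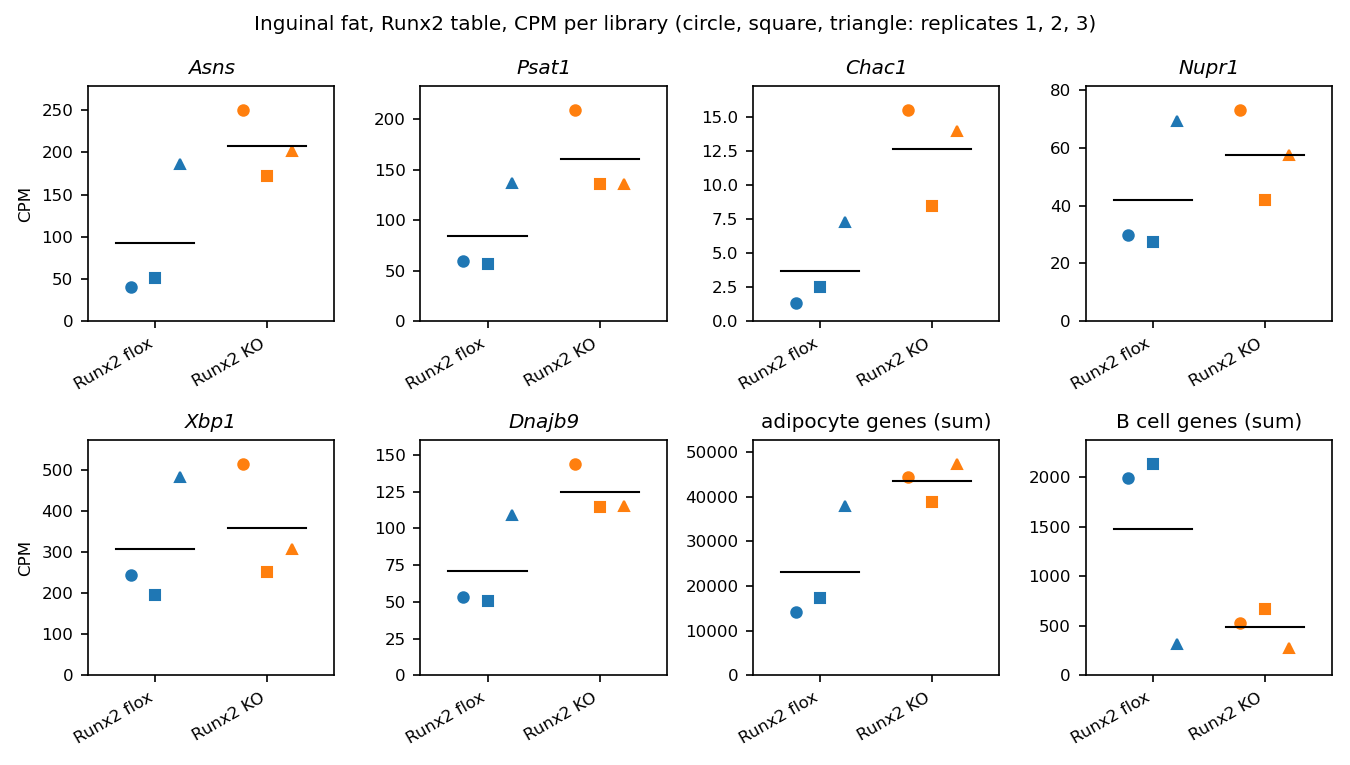
CPM in each library of the Runx2 iWAT table (vertical axes start at 0) for 6 members and for the summed adipocyte and B cell genes, with circles, squares and triangles for replicates 1, 2 and 3 and black lines for group means. Flox replicate 3 (triangle) lies with the knockouts for Asns (186 CPM), adipocyte genes (37850 CPM) and B cell genes (316 CPM).

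In HFD fat the Runx1 knockout had 0 members higher and 1 lower, against 0.0465% and 2.07% of 15058 genes. Slc7a11 measured 1.01, 6.93 and 3.14 CPM in wild type and 0.607, 0.549 and 0.295 in the knockout (log2 -2.92, SE 0.66, adjusted p = 0.0449). All knockout libraries lay below all wild-type libraries, at levels under 1 CPM. In the authors' deposited table its log2 fold change was -2.92, with an adjusted p of 0.000213. Leaving out a library ended the call in 5 of 6 cases, the exception being wild-type replicate 1. Hspa5 was at 804, 652 and 788 CPM in wild type, against 837, 807 and 530.2 in the knockout. Xbp1 was at 179, 247 and 203 CPM in wild type, against 295, 191 and 329 in the knockout. Both overlapped between groups. Atf4 stood at 203, 188 and 165 CPM in wild type, against 206, 174 and 282 in the knockout, and Ddit3 at 35.03, 25.3 and 31.5 CPM, against 27.4, 35.8 and 40.5. Neither of these separated the groups. Atf3 was at 15.1, 9.34 and 22.1 CPM in wild type, against 26.1, 54.3 and 19.1 in the knockout (log2 1.10, SE 0.40, adjusted p = 0.364). The 9 B cell genes, 9 of 9 of them called lower, summed to 213 to 538 CPM in wild type and 5.62 to 8.67 CPM in the knockout. T cell genes, 6 of 7 of them called lower, went from 118 to 319 CPM to 28.8 to 42.1 CPM, and plasma cell genes, 1 of 4 called lower, from 11.6 to 12.8 CPM to 3.55 to 5.37 CPM. Their part in the Slc7a11 value was not tested.

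In the cultures labelled delete Runx2 IDR, 1 member was higher and 0 lower than with full-length Runx2 (1.51% and 2.4% of 13110 genes). Hspa5 was at 882 and 846 CPM with full-length Runx2 and 1068 and 989.8 with the shortened form (log2 0.25, SE 0.073, adjusted p = 0.0375). The call ended when any library other than replicate 2 of the shortened form was left out, and each such fit leaves 1 library in a group. Over 8 alternatives the log2 fold change of Hspa5 ran from 0.20 to 0.31. Runx2 itself had a lower count with the shortened form (129 ± 20.2 against 294 ± 0.885 CPM, SD, n = 2). A count per gene does not tell less mRNA from mRNA that lacks a part. Xbp1 was at 153 and 152 CPM with full-length Runx2, against 171 and 162 with the shortened form. Atf4 was at 419 and 429.6 CPM, against 464 and 408, and Ddit3 at 126 and 137 CPM, against 165 and 139.9. The groups overlapped for Atf4 but not for Xbp1 or Ddit3, and none of the 3 passed. Ern1 stood at 32.2 and 35.2 CPM with full-length Runx2, against 20.2 and 35.95, with replicate 1 of the shortened form low. Of the other ER folding genes, Ero1a was higher (log2 0.81, SE 0.085), and of the other ATF4 targets Gdf15 was (log2 0.54, SE 0.15).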

How the data were processed

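Gene expression was measured by RNA-seq in 43 mouse libraries. The authors deposited raw counts per gene symbol in 6 tables, and fastp, STAR, featureCounts and the build mm39 are named per the submitters' processing notes; versions, options and strand setting are not given in the sources used here. Between 71.1% and 81.9% of counts from 1 to 19 were even, as would arise if the mates of a read pair were counted singly; the counts then hold fewer independent fragments than their size says. The authors' deposited lists for 2 comparisons give log2 fold changes and an adjusted p-value per the file headers, and 10 columns of per-sample values in them were not used. Each table was fitted on its own with edgeR 4.0.16 in R 4.3.3: filterByExpr (minimum count 10), TMM scaling and the robust quasi-likelihood test, with all groups of a table in 1 fit and Benjamini-Hochberg adjustment over all tested genes. A call is an adjusted p under 0.05. DESeq2 1.42.0, its size factors, no filter, the replicate block, the compared groups alone, a 1.5-fold minimum and each library left out were alternatives. In the overexpression table a further alternative left out the libraries with cardiac transcripts, which were picked from these data. The fit without libraries above 1000 CPM of skeletal muscle genes was added after seeing the data. The procedure was tested on simulated data.

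All 36 members are accounted for in each comparison. Values in every library are given for the called members with the lowest adjusted p of their arm, and for Atf4, Ddit3, Hspa5 and Xbp1 in each table. Of the related gene lists, up to 3 called genes with the lowest adjusted p are named. The members and lists were chosen with earlier results of these data known. Promoter sequences and their positions are RefSeq's on GRCm38.p6, another build than that of the counts, and were matched by symbol only. Counts of genes with near-identical copies or overlapping neighbours are uncertain. Figures were drawn with matplotlib 3.10.9.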

Additional observations from a re-analysis of the deposited data

How the results depend on the processing

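Alternatives counted for single members leave out the 1.5-fold minimum, which is given apart below. Of the called members, 21 of 23 with Runx1 overexpression and 19 of 24 with Runx2 overexpression kept their call and direction in all these. So did 6 of 13 between the overexpressions, 1 of 10 in the double knockout (Herpud1) and none elsewhere. Values of single members were compared only where the main fit, the alternative or both gave a call, 1391 in all. Of these, 1106 were called in both, 162 lost and 119 gained a call, and 4 changed sign. Sign changes of values called in neither fit were not counted. The 4 that were counted came without double knockout replicate 1: Pdia6 (log2 -0.21) and Phgdh (-0.27) against the control, and Nupr1 against the Runx1 knockout (-0.33) and the Runx2 knockout (-0.37). Requiring 1.5-fold left fewer by construction, with 15 members for Runx1 overexpression (5172 genes in place of 7912). It left 16 for Runx2 (6406 genes in place of 8928) and 4 between them (3335 in place of 5845). It left 6 in the double knockout (1492 genes in place of 2070) and 0 in the IDR table (176 in place of 512). Fitting the compared groups alone, with fewer libraries behind the spread, gave 1 member in the double knockout (379 genes called in place of 2070). It gave 0 against each single knockout (7 and 31 genes in place of 873 and 748). In the Runx1 and Runx2 knockouts it gave 1 each (195 and 105 genes in place of 59 and 25). DESeq2's Wald test called 16 members in the double knockout, 6 against the Runx1 knockout, 1 in the Runx2 knockout, 7 in the Runx1 iWAT table (2290 genes in place of 1189) and 4 in the Runx2 iWAT table (1039 genes in place of 0); the cause was not tested. DESeq2 size factors changed no count of members. With the replicate block, 3 members were called against the Runx2 knockout in place of 5 (605 genes in place of 748). In the double knockout 7 were called in place of 10 (1772 genes in place of 2070). In HFD fat 0 were called in place of 1 (206 genes in place of 318). That member was Slc7a11 (adjusted p = 0.162 in edgeR's quasi-likelihood test). The numbers share no source in the labels, and the deviations of same-numbered libraries correlated between -0.265 and 0.413 (median 0.005, 38 pairs, across genes). Libraries correlated best with their own number in 7 of 12 cases in the knockout cultures and 2 of 9 in the overexpression table. The cases were 3 of 6 in each floxed fat table, 0 of 6 in HFD fat and 4 of 4 in the IDR table. In the IDR table the deviations of a group's 2 libraries mirror each other, so only 0 or 4 cases could arise. The correlations there were 0.006 for the same number and -0.006 for other numbers. With single libraries left out, the members called ranged from 21 to 26 with Runx1 overexpression, 19 to 24 with Runx2 and 7 to 17 between them. The ranges were 6 to 23 in the double knockout, 1 to 10 and 1 to 11 against the Runx1 and Runx2 knockouts, 0 to 3 and 0 to 4 in the single knockouts, 0 to 4 and 0 to 16 in the Runx1 and Runx2 iWAT tables, 0 to 1 in HFD fat and 0 to 5 in the IDR table. The counts over all genes moved in these fits too, and in the IDR table each leaves 1 library in a group. With 2 or 3 libraries per group, calls near the threshold hung on single libraries, such as that of Slc7a11 in HFD fat (0.295 to 0.607 CPM in the knockout).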
